A study of Mus musculus with 36 samples.

Results

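The immediate early genes examined here were Fos, Fosb, Jun, Junb, Egr1, Egr2, Ier2, Ier3, Atf3 and Myc, 10 of the 43472 genes listed in the count table. They were chosen by name, as genes known to be transcribed soon after a cell is stimulated, and all 10 were found in the table by their symbols. Earlier results of these data were known when they were chosen. Their RNA was counted by 3′ mRNA sequencing in primary enteric glial cells (EGCs), the glia of the gut wall, that were wild type and grown from neurospheres of the embryonic mouse intestine. Unstimulated EGCs were compared with EGCs given conditioned medium of healthy colon (H-CM EGCs) or of tumor tissue (TME-CM EGCs), each after 6 h, 12 h or 24 h, with 4 libraries in each of 9 groups and 36 libraries in all. The tumor medium came from overnight cultures of digested orthotopic tumors of MC38 cells, a mouse colon carcinoma line, and the healthy medium from colon cells handled likewise. Both media hold whatever these cell mixtures release, and the cells were differentiated in serum, which the unstimulated group shared. The comparisons ask how the medium of the tumor changes these genes beyond the medium of healthy tissue, and whether that changes with time.

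Immediate early genes are switched on by growth factors, cytokines and stress through factors that are already present in the cell, without the need to make new protein first. MAP kinases act on serum response factor with its ELK partners and on CREB, and inflammatory signals act through NF-κB. Many of the transcripts carry AU-rich elements and decay fast, so that their levels are known to rise and fall again soon after a stimulus, and several encode transcription factors that then act on later genes. FOS, FOSB, JUN, JUNB and ATF3 belong to the bZIP factors that form AP-1 and related dimers, EGR1 and EGR2 are zinc finger factors, MYC is a bHLH factor that binds DNA with MAX, and IER2 and IER3 are small proteins outside these families. No library was taken before 6 h, so the first hours after stimulation were not measured.

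Library totals ranged from 13518 to 7552509 counts, and both libraries under 1000000 counts belonged to 6 h. These were H-CM replicate 4, with 13518 counts and 3908 genes detected, and unstimulated replicate 3, with 256453 counts. A count of 0 allows up to 110 CPM in the first and 15.8 CPM in the other, taking 3 counts as the limit, for counting error only. Among the TME-CM libraries of 6 h, replicates 1 and 3 had few genes detected for their depth, 10120 from 4158689 counts and 10433 from 2919357 counts. Replicate 2 had 13481 genes from 1321201 counts and replicate 4 had 13796 from 5244763. Yam1, a gene of the count table, took a share of all counts that differed between the groups of 6 h. It was 10.97% to 14.22% in TME-CM replicates 1, 3 and 4 and 37.8% in replicate 2. In H-CM EGCs it was 43.86% to 48.6% in replicates 1 to 3 and 19.99% in replicate 4. In unstimulated EGCs it was 43.15% to 46.26% in replicates 1 to 3 and 13.1% in replicate 4. The spread between replicates shared by all genes, given as edgeR's common dispersion, fell from 0.572 in the 6 h libraries to 0.122 in those of 12 h and 0.0455 in those of 24 h. The glial markers Sox10 and S100b were detected in every library, and at 12 h and 24 h Sox10 lay between 56.0 and 81.1 CPM and S100b between 26.2 and 103 CPM. Of the other markers, the summed level of 6 smooth muscle genes moved with the groups at 24 h, from 5882 to 6614 CPM in unstimulated EGCs, 2655 to 3277 CPM in H-CM EGCs and 1284 to 1972 CPM in TME-CM EGCs. Most of that sum was Acta2, with means of 5724, 2637 and 1523 CPM in this order, and Myh11, Cnn1 and Des had means in the same order, while Prkg1 (18.0, 17.3 and 9.70 CPM) and Foxp2 (24.4, 26.6 and 17.5 CPM) were not lower in H-CM than in unstimulated EGCs by more than their spread. The neuron markers Nefl and Syp summed to 17.9 to 41.5 CPM in unstimulated, 27.6 to 39.1 CPM in H-CM and 0.767 to 17.1 CPM in TME-CM EGCs at 24 h, where the TME-CM libraries lay below both other groups. Of the mesenchyme markers, Pdgfra had means of 30.0, 48.2 and 92.2 CPM in the order of the groups and Wt1 of 9.40, 6.33 and 8.41 CPM. The 4 immune markers at 6 h summed to 4.69 to 457 CPM in unstimulated, 73.6 to 178 CPM in H-CM and 2.47 to 111 CPM in TME-CM EGCs. At 24 h they summed to 12.4 to 49.4, 8.91 to 28.2 and 12.9 to 48.3 CPM, and the ranges of the groups overlapped at both times. The part of these cells in the results below was not tested, and in such bulk samples fewer cells of a type and less RNA per cell cannot be told apart.

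Levels are given as CPM, the count divided by the TMM-scaled library size and multiplied by 1000000. Differences are log2 fold changes from edgeR's quasi-likelihood test with Benjamini-Hochberg adjustment over all genes tested, and a gene was called at an adjusted p under 0.05. Nothing in the labels says that the 4 libraries of a group came from separate cultures, so the p-values measure the spread between these libraries. After the filter on low counts, 7 of the 10 genes were tested at 6 h and 9 at 12 h and at 24 h. Fosb, Egr2 and Myc were left out at 6 h, and Egr2 at each time point.

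Ier3 was called in 8 of its 9 comparisons between stimulations, more than any other of the 10 genes. IER3 is an early response protein known to be induced by NF-κB and to modulate cell survival. The gene lies at chr17:35821684-35822923 (mm10, + strand), with no exon base shared with another annotated gene. In unstimulated EGCs its level at 24 h was 96.0, 97.9, 99.0 and 109 CPM in replicates 1 to 4. In H-CM EGCs it was 255, 208, 188 and 187 CPM, and in TME-CM EGCs it was 755, 509, 611 and 656 CPM. The 3 groups did not overlap, with the unstimulated libraries lowest and the TME-CM libraries highest. The log2 fold change between TME-CM and H-CM EGCs was 1.59 (SE 0.13, adjusted p = 9.50e-08), which is 3.01-fold. Between TME-CM and unstimulated EGCs it was 2.65 (SE 0.14, adjusted p = 4.72e-11), or 6.29-fold, the lowest p of all 12713 genes tested at that time. Between H-CM and unstimulated EGCs it was 1.06 (SE 0.13, adjusted p = 8.73e-05). These 3 comparisons share their libraries and are not independent of each other.

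At 12 h, Ier3 stood at 95.7, 110, 103 and 109 CPM in unstimulated EGCs. It stood at 440, 247, 140 and 248 CPM in H-CM EGCs and at 880, 698, 666 and 718 CPM in TME-CM EGCs. The groups again did not overlap, and the H-CM libraries were the most spread. The log2 fold changes were 1.47 (SE 0.24, adjusted p = 0.00126) for TME-CM against H-CM, 2.82 (SE 0.25, adjusted p = 5.00e-07) for TME-CM against unstimulated and 1.35 (SE 0.24, adjusted p = 0.00993) for H-CM against unstimulated EGCs. The last call was lost without unstimulated replicate 1 (adjusted p = 0.0523) or replicate 3 and with only the groups compared in the fit (0.0598).

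At 6 h, Ier3 was at 170, 133, 142 and 129 CPM in unstimulated EGCs and at 194, 189, 192 and 221 CPM in H-CM EGCs, where the value of 221 CPM rests on 6 counts. In TME-CM EGCs it was at 833, 472, 1237 and 554 CPM, above all libraries of both other groups. The log2 fold change was 1.95 (SE 0.37, adjusted p = 0.0330) against H-CM EGCs and 2.39 (SE 0.37, adjusted p = 0.000669) against unstimulated EGCs. The call against H-CM EGCs was the weaker of them: it was kept in 2 of the 8 fits that left out 1 library, those without TME-CM replicate 2 or replicate 4, and the adjusted p reached 0.290 without H-CM replicate 2. It was lost with the replicate number as a block (1.89, adjusted p = 0.0937). Without both libraries under 1000000 counts it was 2.06 with an adjusted p of 0.0227. Without Yam1 it was 2.001 with an adjusted p of 0.0306. TME-CM replicate 3, with the lowest Yam1 share of its group (10.97%), had the highest Ier3 there. TME-CM replicate 2, with the highest share (37.8%), had the lowest. H-CM replicate 4, lowest in share, was highest for Ier3, but unstimulated replicate 4, also lowest in share, was lowest for Ier3. Whether Ier3 moved with this share was not tested. H-CM and unstimulated EGCs differed by 0.44 at 6 h (95% interval −0.31 to 1.19, adjusted p = 1), although their ranges did not overlap.

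In the order of their means, Ier3 was lowest in unstimulated EGCs at 24 h (100.4 ± 5.57 CPM, SD, n = 4) and 12 h (104 ± 6.45), whose ranges overlapped. Unstimulated EGCs at 6 h (143 ± 18.3) followed, above both without overlap. H-CM EGCs at 6 h (199 ± 14.8), 24 h (209.5 ± 32.1) and 12 h (269 ± 125) came next, and their ranges overlapped with each other. TME-CM EGCs at 24 h (633 ± 102), 12 h (740.4 ± 95.4) and 6 h (774 ± 345) were highest, again with ranges that overlapped, and no TME-CM library fell below an H-CM library of any time. The difference between TME-CM and H-CM EGCs did not change detectably with time: it moved by 0.13 from 12 h to 24 h (95% interval −0.53 to 0.80) and by −0.37 from 6 h to 24 h (−1.08 to 0.35).

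**Figure D1:**
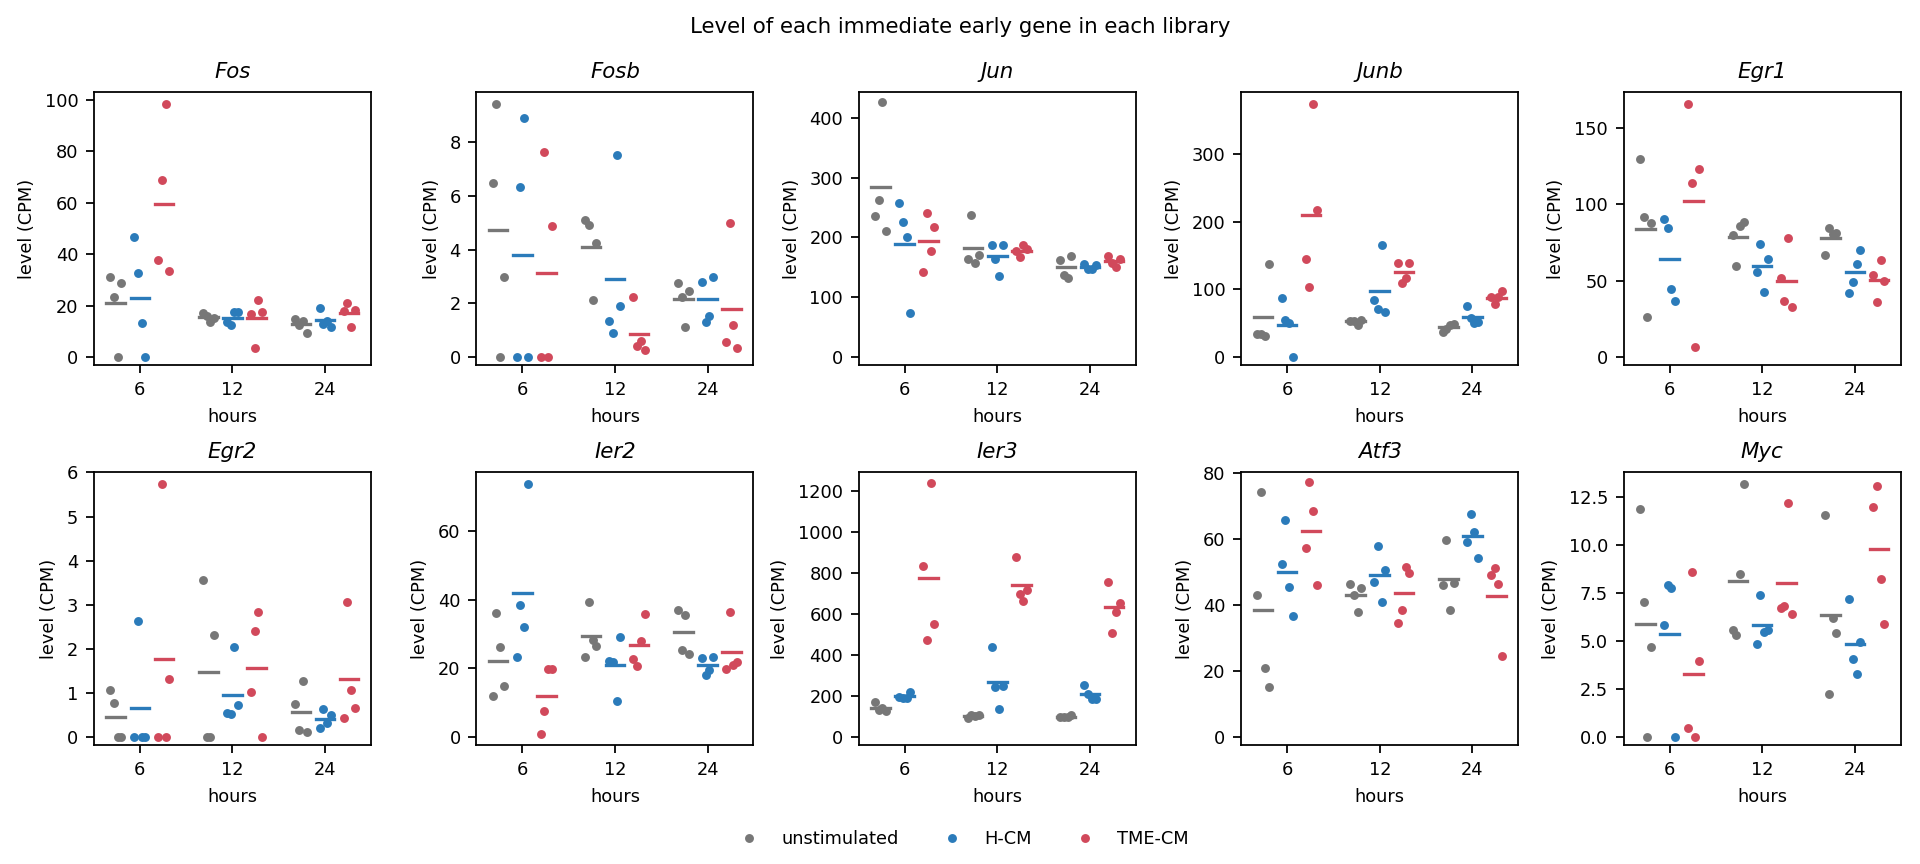
Level of the 10 immediate early genes in CPM on TMM-scaled library sizes (vertical axis, a separate linear scale for each gene) against hours of stimulation. Each point is 1 library, each line the mean of 4, grey for unstimulated, blue for H-CM and red for TME-CM EGCs. The red points of Ier3 lie above the blue and grey ones at each time, those of Junb lie above the grey ones at 12 h and 24 h, and the 6 h libraries are the most spread.

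Sequence before the start of Ier3, Junb and Fos is shown because Ier3 and Junb carried the calls against H-CM EGCs and Fos had the lowest adjusted p between time points. RefSeq promoter windows were taken for 7 of the 10 genes and were not taken for Egr1, Ier2 and Myc. Each stretch is the 250 bases before the RefSeq start, 5′ to 3′ on the strand of the gene (GRCm38.p6, the assembly also called mm10). They are chr17:35821463-35821712 (+ strand) for Ier3, chr8:84978749-84978998 (− strand) for Junb and chr12:85473640-85473889 (+ strand) for Fos. The annotation used for gene positions starts Ier3 within the last 30 bases shown. Capitals mark matches on either strand to 6 motifs: the NF-κB motif, the CArG box bound by serum response factor, TGACG (the core of the CREB motif), TGANTCA (AP-1), GCGNGGGCG (EGR) and TATAAA.
Ier3: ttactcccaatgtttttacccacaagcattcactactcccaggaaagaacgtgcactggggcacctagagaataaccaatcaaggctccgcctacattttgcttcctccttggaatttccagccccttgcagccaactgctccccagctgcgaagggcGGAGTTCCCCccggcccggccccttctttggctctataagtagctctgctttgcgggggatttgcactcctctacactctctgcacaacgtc
Junb: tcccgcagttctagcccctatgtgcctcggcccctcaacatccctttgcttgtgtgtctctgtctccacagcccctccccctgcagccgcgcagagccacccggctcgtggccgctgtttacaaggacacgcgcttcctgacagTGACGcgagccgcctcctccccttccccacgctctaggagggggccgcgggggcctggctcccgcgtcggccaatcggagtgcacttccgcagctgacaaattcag
Fos: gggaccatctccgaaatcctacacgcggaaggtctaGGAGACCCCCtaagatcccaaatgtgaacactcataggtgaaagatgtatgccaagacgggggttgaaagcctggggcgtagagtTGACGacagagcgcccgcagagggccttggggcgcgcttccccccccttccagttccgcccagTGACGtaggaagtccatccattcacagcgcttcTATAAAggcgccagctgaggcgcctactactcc
Ier3 held 1 NF-κB match, on the − strand of the gene from −92 to −83, Junb held TGACG from −106 to −102, and Fos held an NF-κB match from −214 to −205, TGACG at −129 and at −66, and TATAAA at −33. Among all 32851 windows of this length, 7.25% held an NF-κB match, 17.8% TGACG, 12.4% TATAAA, 6.75% TGANTCA, 4.7% GCGNGGGCG and 1.47% a CArG box. The last 3 motifs had no match in the 3 stretches shown, and bases further upstream were not searched. Of the genes whose windows are not shown, Fosb held an NF-κB match from −188 to −179 and a window of Egr2 held one from −117 to −108. Jun and Atf3 held none. Neither Fosb nor Egr2 was called. A match describes the letters only and was not tested for binding.

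Among the AP-1 genes, Junb rose in TME-CM EGCs. JUNB is a partner of FOS proteins and is known to weaken or replace JUN at many AP-1 sites. The gene lies at chr8:84974484-84978718 (mm10, − strand). An exon of a noncoding Junb transcript shares 173 bases with Prdx2, which runs the other way, and whether reads were counted by strand is not given in the sources used here. Prdx2 itself differed by 0.14 at 24 h in TME-CM against H-CM EGCs (95% interval −0.10 to 0.38, adjusted p = 0.623). At 24 h, Junb was at 37.9, 41.5, 47.9 and 48.4 CPM in unstimulated EGCs. It was at 75.8, 57.4, 49.9 and 52.5 CPM in H-CM EGCs and at 88.1, 78.3, 88.1 and 97.1 CPM in TME-CM EGCs. The 3 groups lay in this order without overlap, but the lowest H-CM library exceeded the highest unstimulated library by little. The log2 fold change was 0.58 (SE 0.15, adjusted p = 0.0201) for TME-CM against H-CM and 0.99 (SE 0.15, adjusted p = 5.48e-05) for TME-CM against unstimulated EGCs. For H-CM against unstimulated EGCs it was 0.42 (SE 0.15, adjusted p = 0.213, 95% interval 0.11 to 0.73). The call against H-CM EGCs was kept in 3 of 8 fits that left out 1 library, and its adjusted p reached 0.112 without H-CM replicate 3. With all 36 libraries in 1 model neither 24 h call was kept (adjusted p = 1 against H-CM and 0.197 against unstimulated EGCs).

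At 12 h, Junb was at 53.9, 53.3, 48.2 and 55.4 CPM in unstimulated EGCs and at 139, 110, 117 and 139 CPM in TME-CM EGCs, which did not overlap (log2 fold change 1.25, SE 0.25, adjusted p = 0.00282). H-CM EGCs were at 85.0, 71.0, 165 and 66.9 CPM, so that replicate 3 exceeded the TME-CM libraries. TME-CM and H-CM EGCs differed by 0.38 (95% interval −0.12 to 0.88, adjusted p = 0.645), and by 0.76 without H-CM replicate 3 (adjusted p = 0.0176). H-CM and unstimulated EGCs differed by 0.87 (adjusted p = 0.240), again without overlap. At 6 h, Junb was at 145, 104, 373 and 217 CPM in TME-CM EGCs and at 87.5, 54.9, 50.0 and 0 CPM in H-CM EGCs, the last in the library of 13518 counts. Unstimulated EGCs were at 34.6, 34.5, 31.5 and 137 CPM, and replicate 4 lay within the TME-CM range. This replicate had the lowest Yam1 share of the unstimulated 6 h libraries (13.1%), near those of TME-CM replicates 1, 3 and 4. TME-CM replicate 2, with the highest Yam1 share of its group (37.8%), had the lowest Junb of that group. H-CM replicate 1, with the highest share of its group (48.6%), had the highest Junb there. Whether Junb moved with this share was not tested. The log2 fold changes of 1.82 against H-CM (adjusted p = 0.434, 95% interval 0.71 to 2.94) and 1.74 against unstimulated EGCs (adjusted p = 0.248, 0.67 to 2.81) were larger than at 24 h and were not called. With all 36 libraries in 1 model both were called (adjusted p = 0.00552 and 0.00241). The difference from unstimulated EGCs was also called without the filter on low counts (1.83, adjusted p = 0.0391) and without unstimulated replicate 4 (2.59, adjusted p = 0.0211). From 6 h to 24 h the difference between both media changed by −1.20 (95% interval −2.20 to −0.20), with an adjusted p of 0.487.

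Fos, the AP-1 partner that is known for its brief induction, was not called in any comparison. In TME-CM EGCs it was at 37.6, 68.8, 98.2 and 33.6 CPM at 6 h, and at 16.7, 3.60, 22.3 and 17.5 CPM at 12 h. These groups did not overlap, and the log2 fold change from 6 h to 12 h was −2.01 (SE 0.56, 95% interval −3.19 to −0.82, adjusted p = 0.0799). With DESeq2 it was −2.13 and called (adjusted p = 0.00393), and with all 36 libraries in 1 model it was −1.96 and called (0.00879). In H-CM EGCs the 6 h libraries were at 46.7, 32.7, 13.3 and 0 CPM and those of 12 h at 12.5 to 17.7 CPM, with a log2 fold change of −0.97 (adjusted p = 0.151). In unstimulated EGCs it was −0.65 (adjusted p = 0.542), from 31.3, 23.5, 0 and 28.8 CPM at 6 h to 13.8 to 17.3 CPM at 12 h. The point estimates were below 0 in all 3 stimulations, and whether they differed was not tested. At 24 h, Fos lay between 9.27 and 21.1 CPM in all 12 libraries, and TME-CM and H-CM EGCs differed by 0.22 (95% interval −0.27 to 0.70). At 6 h they differed by 1.053 (95% interval −0.43 to 2.54, adjusted p = 0.911).

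Jun, the core of most AP-1 dimers, was not called in any comparison. Its mean was 150.0 ± 18.3 CPM in unstimulated EGCs, 150.8 ± 3.93 with H-CM and 160.2 ± 8.02 with TME-CM at 24 h (SD, n = 4). The difference between TME-CM and H-CM EGCs was 0.08 at both 12 h and 24 h, with a 95% interval of −0.16 to 0.33 at 24 h, so a change of the size seen for Ier3 lay outside it. At 6 h it was −0.10 (−0.88 to 0.69). Jun shares 232 exon bases with the antisense gene Junos on the opposite strand, which had at most 8 counts in a library. Fosb, a FOS relative, was too low to test at 6 h and lay between 0.257 and 7.53 CPM at 12 h, where 11 counts were the most in a TME-CM library. It differed by −2.11 between TME-CM and unstimulated EGCs at 12 h (SE 0.90, adjusted p = 0.299), and by −1.63 between TME-CM and H-CM EGCs (adjusted p = 0.562).

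Atf3, a stress-induced bZIP factor that represses many of its targets, was lower in each TME-CM than in each H-CM library at 24 h without passing the test. H-CM EGCs were at 59.2, 67.7, 62.3 and 54.5 CPM and TME-CM EGCs at 49.2, 51.4, 46.3 and 24.5 CPM. The log2 fold change was −0.53 (SE 0.19, 95% interval −0.92 to −0.13, adjusted p = 0.130), and it was called without the filter on low counts (adjusted p = 0.0386). Unstimulated EGCs were at 38.5 to 59.9 CPM, overlapping both. At 12 h the difference was −0.16 (95% interval −0.59 to 0.26), and at 6 h it was 0.21 (−0.93 to 1.36).

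Egr1, a zinc finger factor induced through serum response factor, was lower in TME-CM than in unstimulated EGCs at 24 h. Unstimulated EGCs were at 66.7, 84.1, 80.4 and 81.2 CPM, H-CM EGCs at 41.9, 49.4, 60.9 and 70.3 CPM and TME-CM EGCs at 53.4, 36.1, 63.4 and 49.8 CPM. The TME-CM libraries lay below the unstimulated ones without overlap and within the range of the H-CM libraries but for replicate 2, which was the lowest of all. The log2 fold change was −0.62 (SE 0.17, adjusted p = 0.0214) for TME-CM and −0.51 (SE 0.17, adjusted p = 0.177) for H-CM against unstimulated EGCs. TME-CM and H-CM EGCs differed by −0.11 (95% interval −0.47 to 0.25). The call was kept in 3 of 8 fits that left out 1 library, where the adjusted p reached 0.0653 without unstimulated replicate 2, and it was lost with all 36 libraries in 1 model (adjusted p = 1). Srf, the gene of serum response factor, was also lower in TME-CM than in unstimulated EGCs at 24 h (−0.53, SE 0.14, adjusted p = 0.0155), and the summed level of the smooth muscle markers, given above, was lower there too. Srf was named here after its values were seen, and a link of Egr1 to Srf or to these markers was not tested.

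At 12 h, Egr1 differed by −0.66 between TME-CM and unstimulated EGCs (SE 0.25, adjusted p = 0.208), with 51.9, 36.8, 77.9 and 32.9 CPM against 79.9, 59.8, 85.8 and 88.6 CPM. These ranges overlapped. Without TME-CM replicate 3 of 12 h the difference was −0.95 and called (adjusted p = 0.0287). At 6 h, TME-CM EGCs were at 165, 114, 6.57 and 123 CPM, and replicate 3, lowest for Egr1, was the highest of its group for Fos, Junb and Ier3. Egr2, a relative of Egr1 that controls myelination in Schwann cells, had at most 17 counts in a library and was listed at 0 in 10 of the 36, and it was not tested.

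Ier2, a small nuclear protein, was not called in any comparison. Its largest difference between stimulations was that of TME-CM against H-CM EGCs at 6 h, where TME-CM EGCs were at 0.934, 7.64, 19.7 and 19.9 CPM and H-CM EGCs at 23.3, 38.5, 32.2 and 73.6 CPM, the last from 2 counts. These libraries did not overlap, with a log2 fold change of −1.63 (95% interval −3.49 to 0.23, adjusted p = 0.879), while at 24 h the estimate was above 0. At 24 h it was at 37.1, 25.3, 35.5 and 24.2 CPM in unstimulated and at 23.1, 18.0, 19.6 and 23.3 CPM in H-CM EGCs, which did not overlap (log2 fold change −0.55, SE 0.21, adjusted p = 0.279). TME-CM EGCs were at 19.8, 36.4, 21.0 and 21.8 CPM, so that replicate 2 stood with the unstimulated libraries. Myc, which drives growth and metabolism, was at 5.87 to 13.0 CPM in TME-CM and 3.28 to 7.18 CPM in H-CM EGCs at 24 h, and these ranges overlapped. The difference of 1.005 (SE 0.41, 95% interval 0.16 to 1.85) had an adjusted p of 0.198.

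**Figure D2:**
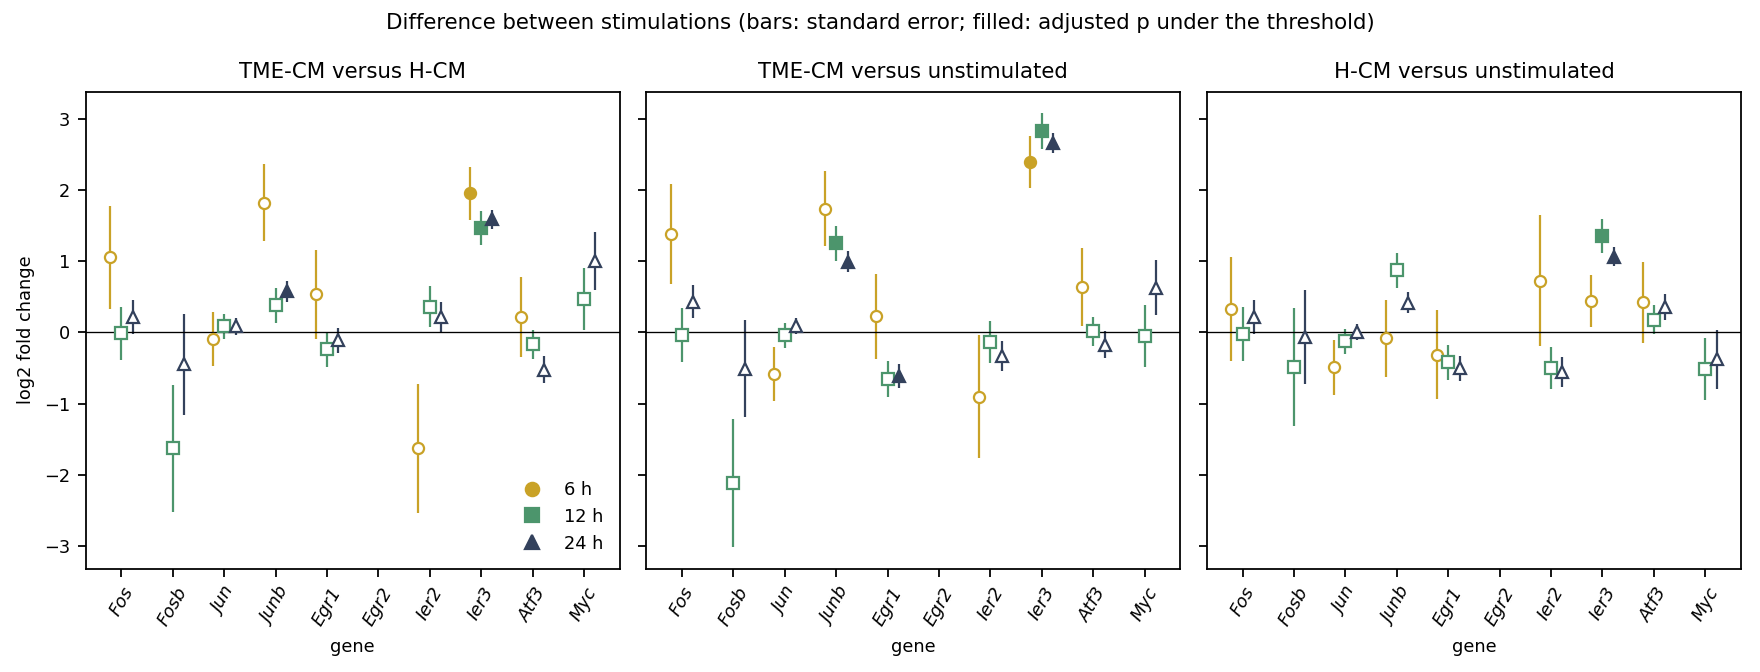
Log2 fold change (vertical axis) of each immediate early gene (horizontal axis) between stimulations at 6 h (circles), 12 h (squares) and 24 h (triangles), in a panel for each comparison. Bars are standard errors from edgeR, filled symbols have an adjusted p under 0.05, and genes under the filter on low counts have no symbol. Ier3 is filled in 8 of its 9 comparisons, Junb in 3 and Egr1 in 1.

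Counted over the genes, the calls were few. Between TME-CM and H-CM EGCs, 1 of 7 tested genes was higher at 6 h (Ier3), 1 of 9 at 12 h (Ier3) and 2 of 9 at 24 h (Ier3 and Junb). Among all genes tested, 0.0972%, 1.22% and 2.75% were called higher at these times, and 0.675% and 2.65% were called lower at 12 h and 24 h. None of the 10 was called lower. Because the 10 genes were chosen with earlier results of these data known, the shares are set side by side as a description only. These shares depend on the fit: with all 36 libraries in 1 model, 899 genes were called at 6 h and 71 at 24 h (of 13469, in either direction), in place of 9 of 9256 and 686 of 12713. At 6 h the count ranged from 2 to 25 when 1 library was left out, the highest without TME-CM replicate 2. Between TME-CM and unstimulated EGCs, 1 of 7 was higher at 6 h, 2 of 9 at 12 h and 2 of 9 at 24 h, against 0.432%, 2.67% and 4.82% of all genes tested. Egr1 was the 1 of 9 called lower at 24 h, against 4.7% of all genes. Between H-CM and unstimulated EGCs, Ier3 alone was called higher at 12 h and at 24 h (1 of 9 each, 0.354% and 1.07% of all genes). At 6 h edgeR called 0 of 7 (0% of all genes), with 0 of the 7 at an unadjusted p under 0.05 (0.627% of all genes) and 0 by DESeq2 (0%).

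The median of the tested immediate early genes between TME-CM and H-CM EGCs was 0.54, 0.08 and 0.22 in time order. The median of all genes tested was 0.13, −0.00 and 0.00. At 6 h the median of all genes was thus itself above 0, and the differences given for that time were not adjusted for it. Between TME-CM and unstimulated EGCs the medians of the immediate early genes were 0.64, −0.04 and 0.09, and those of all genes 0.04, −0.00 and 0.00. Of the genes tested, 5 of 7 at 6 h, 5 of 9 at 12 h and 6 of 9 at 24 h were above 0 between TME-CM and H-CM EGCs.

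No immediate early gene was called by edgeR between successive time points. From 6 h to 12 h, 0 of 9 were called in unstimulated EGCs, 0 of 9 with H-CM and 0 of 8 with TME-CM, against 0.513%, 2.96% and 1.53% of all genes tested. At an unadjusted p under 0.05 there were 2 in each, beside 13%, 18.6% and 16% of all genes. DESeq2 called 0, 0 and 1, the last being Fos, beside 3.04%, 3.17% and 8.55% of the genes it tested. From 12 h to 24 h the counts were 0 of 9, 0 of 9 and 0 of 8, against 0%, 0% and 0.0166% of all genes, with 0, 1 and 0 at an unadjusted p under 0.05 (0.975%, 3.42% and 0.932% of all genes) and 0 by DESeq2 in each (0%, 0% and 0.0201%). The difference between TME-CM and H-CM EGCs changed for 0 of 9 from 12 h to 24 h and for 0 of 9 from 6 h to 24 h (0% of all genes in both). At an unadjusted p under 0.05 there were 0 and 1, the last being Junb (2.82% and 8.43% of all genes), and DESeq2 called 0 in both (0% and 0.166%).

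The genes around these were read from 5 lists of related genes. Of the other bZIP genes that pair within AP-1 and related dimers, 11 of 13 were tested at each time, and 1 rose in TME-CM against H-CM EGCs at 24 h. This was Fosl2, a FOS relative, with 123 ± 14.1 CPM in H-CM and 176 ± 19.7 CPM in TME-CM EGCs (SD, n = 4) and a log2 fold change of 0.52 (SE 0.13, adjusted p = 0.0159). Of 30 other early response genes, 27 were tested at 12 h and at 24 h. Phlda1, an early gene of MAP kinase signaling, rose at both times, by 1.06 (adjusted p = 0.00129) and 0.86 (7.20e-05), and Pim1, a kinase that promotes survival, rose by 0.71 at 24 h (0.00536). Klf2, a factor of quiescent and vascular cells, fell at both, by 1.04 (0.00496) and 0.72 (0.00416) on the log2 scale. At 12 h, Klf2 was at 36.9 ± 5.31 CPM in TME-CM EGCs, 75.8 ± 6.17 CPM in H-CM EGCs and 90.0 ± 18.0 CPM in unstimulated EGCs. The medians of these lists at 24 h were 0.11 and 0.05, beside 0.00 for all genes tested.

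Among the feedback genes, which end early gene signaling as phosphatases, decay factors or inhibitors, 1 of 20 tested rose at 12 h and 3 of 19 at 24 h in TME-CM against H-CM EGCs. Zfp36l1, which binds AU-rich elements and promotes decay of the transcripts, rose by 0.86 at 12 h (adjusted p = 0.0221) and 0.63 at 24 h (0.000742). Errfi1, an inhibitor of the EGF receptor, rose by 1.33 (0.0121) and Nab1, a co-repressor of EGR factors, by 0.62 (0.0324) at 24 h. Among the kinases and factors upstream, 1 of 23 rose at 12 h and 4 of 23 at 24 h. Map3k8, the kinase that links NF-κB signaling to MAP kinases, rose by 1.54 (0.0251) at 24 h. It had 1.84 ± 0.811 CPM in unstimulated EGCs, 4.10 ± 3.12 CPM with H-CM and 12.4 ± 2.81 CPM with TME-CM. Mapkapk2, which acts downstream of p38, rose by 0.86 at 12 h (0.0146) and 0.74 at 24 h (0.00337), Map2k1 by 0.66 (0.00779) and Elk3 by 0.46 (0.0336) at 24 h. In the MYC network, 0 of 9 tested were called by edgeR at 12 h and 1 of 11 fell at 24 h, Mxd4, a MAX partner that opposes MYC, by 0.58 (0.00245) on the log2 scale. None of the 5 lists held a call at 6 h. The medians of the last 3 lists at 24 h were −0.03, 0.07 and −0.12.

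**Figure D3:**
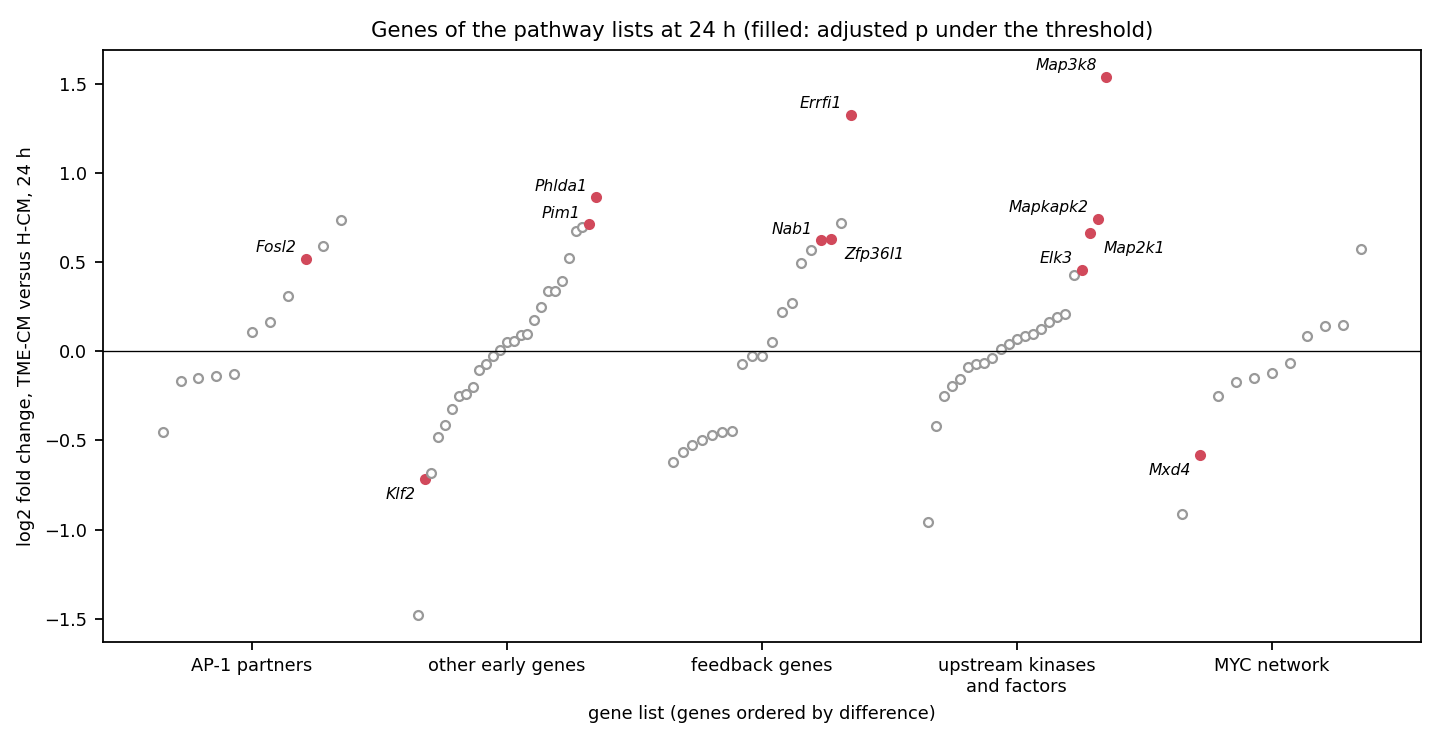
Log2 fold change of TME-CM against H-CM EGCs at 24 h (vertical axis) of the genes tested in 5 lists around the immediate early genes (horizontal axis), ordered by size within a list. Each point is a gene, and filled points with a name have an adjusted p under 0.05. The named genes are 1 bZIP gene, 3 other early genes, 3 feedback genes, 4 upstream genes and 1 MYC network gene, and all but Klf2 and Mxd4 lie above 0.

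Against unstimulated EGCs at 24 h, the feedback genes were split. In TME-CM EGCs 2 of 19 rose and 3 fell, and the 3 that fell were phosphatases of MAP kinases. They were Dusp4 (−0.83, adjusted p = 0.0174), Dusp5 (−1.01, 0.000483) and Dusp14 (−1.07, 0.00335), named after their values were seen. In H-CM EGCs 0 of 19 rose and 2 fell, Dusp5 (−0.99, 0.00389) and Spry1 (−1.14, 0.0105), likewise named afterwards. Of the other early genes, 2 of 27 rose and 4 fell in TME-CM EGCs, and 0 rose and 5 fell in H-CM EGCs. Of all genes tested, 4.82% rose and 4.7% fell in TME-CM EGCs and 1.07% rose and 0.96% fell in H-CM EGCs. Klf2, Gadd45g and Srf fell in both, named here after their values were seen, and the comparisons share the unstimulated libraries.

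The pattern of each gene over the 24 libraries of 12 h and 24 h was compared with that of 10036 genes, by Pearson's r of log2 CPM across libraries. These values are descriptions, since the libraries share their groups and their depth. The 3 genes most like Ier3 were Cxcl5 (r = 0.98), Cxcl1 (0.97) and Cebpd (0.96), the first pair being chemokines of neutrophils and the last a C/EBP factor. For Junb they were Mmp10 (0.94), Gfpt2 (0.92) and Hk2 (0.90), and for Egr1 they were Rock2 (0.88), Col11a1 (0.86) and Utrn (0.85). For Fos they were Mtrf1l (0.85), Rngtt (0.84) and Hoxa11 (0.79), and for Jun they were Capza1 (0.77), Tbrg1 (0.76) and Ctu1 (0.74). For Ier2 they were 0610011F06Rik, Lipt1 and Sumf2 (0.79 each), for Myc 0610009B22Rik (0.75), Gareml (0.69) and Spcs3 (0.63), and for Atf3 Hoxa4 (0.67), Ucp2 (0.66) and Ppfibp2 (0.63). The level of Fos was far lower in TME-CM replicate 2 of 12 h (log2 CPM 2.03, from 9 counts) than in the other libraries (3.29 to 4.51). How much the r of Fos rest on that library was not tested. Ier3 and Junb were correlated over the libraries with r = 0.77, and with r = −0.28 once the mean of each group was taken out. Of all pairs of immediate early genes, Jun and Ier2 had the highest r within groups (0.54) and Junb and Ier2 the lowest (−0.55).

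**Figure D4:**
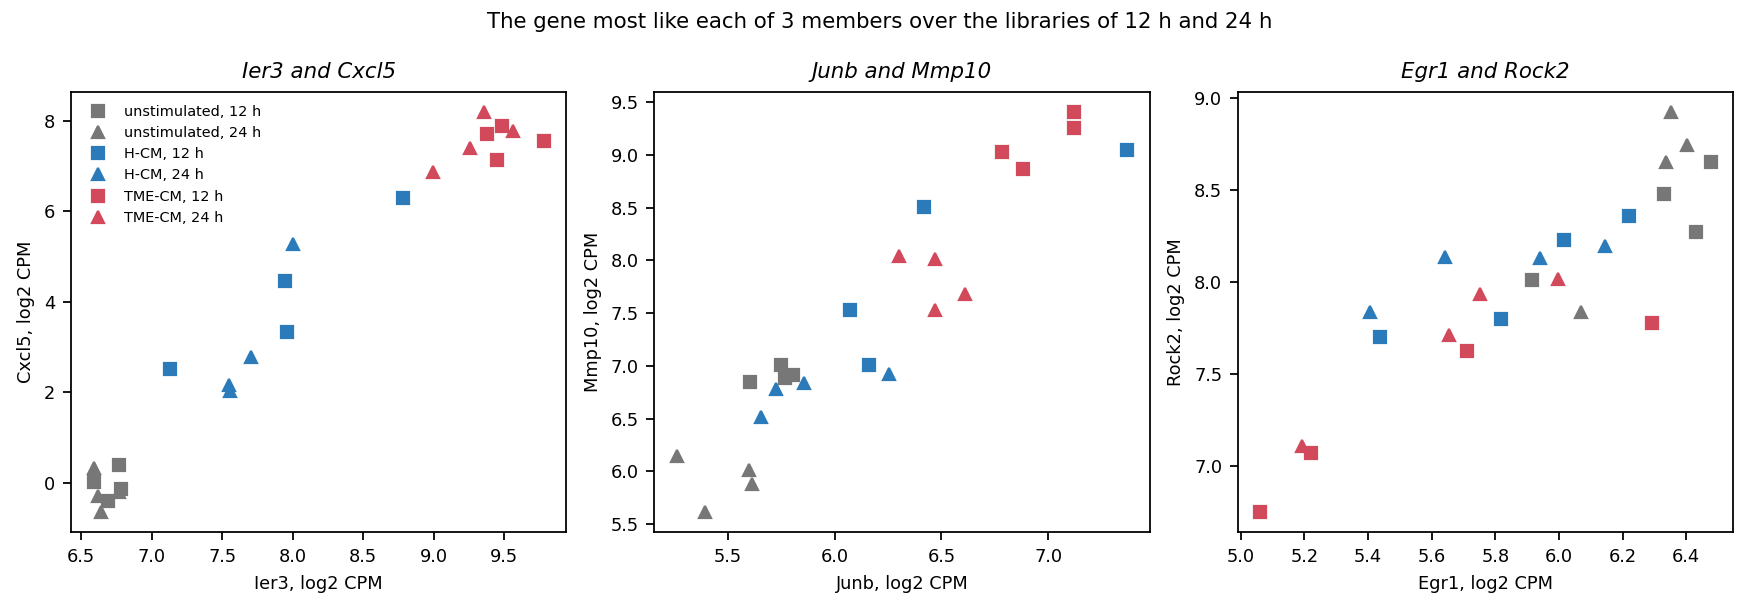
Log2 CPM of Ier3, Junb and Egr1 (horizontal axes) against the gene most like each, Cxcl5, Mmp10 and Rock2 (vertical axes), in the 24 libraries of 12 h (squares) and 24 h (triangles). Colors are grey for unstimulated, blue for H-CM and red for TME-CM EGCs. For Ier3 and Cxcl5 the points fall into the 3 stimulations, with the TME-CM libraries at the upper end, while for Egr1 and Rock2 the stimulations overlap.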

How the data were processed

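RNA of 36 libraries (4 in each of 9 groups, grouped by the sample titles) was read with the QuantSeq 3′ kit, which counts a transcript near its 3′ end, so values were not divided by length. The authors deposited raw counts per gene, made with HT-seq Count from HISAT2 alignments (mm10) after adapter removal by fastq-mcf, without reads that fit several loci. Their processing notes also name FastQC 0.11.7 and SAMtools 1.5. The gene annotation, the use of strand and any molecular identifiers are not given in the sources used here. The limit that a count of 0 allows covers counting error only, while the intervals of fold changes include the spread between libraries.

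The tests used edgeR 4.0.16 in R 4.3.3 (filterByExpr with a minimum count of 10, TMM, robust quasi-likelihood), in 1 model per time point for differences between stimulations, 1 per stimulation for differences between times, and 1 over H-CM and TME-CM libraries of a pair of times for the change of their difference. Benjamini-Hochberg adjustment was over all genes tested. The calling was tested on simulated data. Log2 CPM used a prior count of 2. DESeq2 1.42.0 and the other alternatives are given further on. Genes named are the 10, up to 4 called genes a list with the largest change between TME-CM and H-CM EGCs, and for each of the 10 with a mean of at least 5 CPM the 3 most alike. Other genes were named for an overlap with one of the 10, as markers or after their values were seen. The 10 genes and the lists were chosen with earlier results of these data known. Positions are from GENCODE M21 on GRCm38, and promoter windows from RefSeq.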

Additional observations from a re-analysis of the deposited data

Results flagged for a closer look

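Of 90 sets of 4 libraries (10 genes in 9 groups), 8 held a library far from the 3 others, by the gap to the nearest library over the range of the group. Chance marks about 1 in 20. Junb was at 137 CPM in unstimulated replicate 4 of 6 h, where the next library was at 34.6 CPM. Ier3 was at 221 CPM, from 6 counts, in H-CM replicate 4 of 6 h, next to 194 CPM. Jun was at 237 CPM in unstimulated replicate 2 of 12 h (next 170.1 CPM), and Ier2 at 36.4 CPM in TME-CM replicate 2 of 24 h (next 21.8 CPM). Myc was at 12.2 CPM in TME-CM replicate 3 of 12 h (next 6.80 CPM). In H-CM replicate 3 of 12 h, Fosb was at 7.53 CPM from 33 counts (next 1.90 CPM) and Egr2 at 2.05 CPM from 9 counts (next 0.732 CPM), and this library also had the highest Junb of its group. Egr2 was at 2.64 CPM from 5 counts in H-CM replicate 2 of 6 h, where it was 0 in the others. The cause was not tested for any of them.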

How the results depend on the processing

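The settings tried were DESeq2's size factors, DESeq2's Wald test, no filter on low counts, only the groups compared, all 36 libraries in 1 model, the replicate number as a block, Yam1 left out, and fits that each lacked 1 library. Leaving out both libraries under 1000000 counts was added after the data were seen and changed no count of calls among the 10 genes. The deviations of same-numbered libraries from their group means had correlations of −0.16 to 0.22. For replicate 4 the same number was the closest match of TME-CM and of H-CM to unstimulated EGCs at each time (0.06 to 0.22). Between TME-CM and H-CM EGCs this held for replicate 4 at 12 h only. These correlations cannot decide whether equal numbers mark shared preparations. With the replicate block, at 6 h the calls among the 10 genes for TME-CM against H-CM went from 1 to 0, with Ier3 at 1.89 (adjusted p = 0.0937). The block changed no other count of calls among the 10 genes. With all 36 libraries in 1 model, the calls were 2 at 6 h and 1 at 24 h for TME-CM against H-CM, 2 at 6 h and 1 at 24 h for TME-CM against unstimulated, and 1 for TME-CM EGCs from 6 h to 12 h, in place of 1, 2, 1, 3 and 0. DESeq2 also called 1 there (Fos). Without the filter the calls were 2 for TME-CM against unstimulated EGCs at 6 h and 2 for H-CM against unstimulated EGCs at 12 h (1 each in the text), and with only the groups compared the latter was 0. Atf3 was also added without the filter for TME-CM against H-CM EGCs at 24 h (adjusted p = 0.0386). The cause was not tested.

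With 1 library left out, the calls ranged from 0 to 1 (6 h), 1 to 2 (12 h) and 1 to 2 (24 h) for TME-CM against H-CM, from 1 to 2 for TME-CM against unstimulated EGCs at 6 h, from 0 to 1 for H-CM against unstimulated EGCs at 12 h and from 0 to 1 for TME-CM EGCs from 6 h to 12 h. Differences that were not called changed sign: for TME-CM against H-CM, Jun from −0.21 to 0.068 at 6 h and −0.018 to 0.14 at 12 h, Fos from −0.25 to 0.29 at 12 h, Egr1 from −0.24 to 0.0097 at 24 h and Ier2 from −0.0043 to 0.31 at 24 h. No called difference changed sign under any of these settings. Depth limits what can be read from the libraries of 13518 and 256453 counts, and Egr2, with at most 17 counts in a library, at each time.

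Counts over all genes moved by over 1.5 times as follows. With the block they went from 9 to 4 and from 42 to 23 at 6 h for TME-CM against H-CM and against unstimulated, and from 61 to 35 (unstimulated) and 184 to 88 (TME-CM) from 6 h to 12 h. Without the libraries under 1000000 counts the unstimulated count from 6 h to 12 h was 139. With all 36 libraries in 1 model, TME-CM against H-CM gave 899, 81 and 71 in time order (9, 230 and 686 in models per time point), TME-CM against unstimulated 1113, 288 and 265 (42, 536 and 1210), H-CM against unstimulated 34 at 24 h (258), and from 6 h to 12 h H-CM gave 18 (356) and TME-CM 1351 (184). DESeq2 called 40 and 97 at 6 h, 376 for TME-CM against H-CM at 12 h, 96 and 394 for H-CM against unstimulated at 12 h (49) and 24 h, and 392 and 1161 for unstimulated and TME-CM EGCs from 6 h to 12 h. Without the filter the counts were 41 and 105 at 6 h, 465 for TME-CM against H-CM at 12 h, 168 and 446 for H-CM against unstimulated at 12 h and 24 h, and 147, 767 and 306 from 6 h to 12 h. With only the groups compared they were 19 and 23 at 6 h, 28 for H-CM against unstimulated at 12 h, 10, 93 and 43 from 6 h to 12 h, and 63 for TME-CM EGCs from 12 h to 24 h (2). For the change of the difference from 6 h to 24 h (0) DESeq2 called 29, 1 model 16 and the fit without the filter 88. With 1 library left out, the counts at 6 h ranged from 2 to 25 for TME-CM against H-CM and 19 to 105 for TME-CM against unstimulated, those from 6 h to 12 h from 15 to 267 (unstimulated), 135 to 807 (H-CM) and 57 to 1193 (TME-CM), and the change from 6 h to 24 h from 0 to 479. The highest of the 4 that involve TME-CM EGCs came without TME-CM replicate 2 of 6 h. At 12 h and 24 h they ranged from 137 to 297 and 417 to 776 for TME-CM against H-CM, and from 23 to 57 and 161 to 250 for H-CM against unstimulated.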
